A study of Mus musculus with 6 samples.

Results

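The constant distal regions are stretches of open chromatin away from start sites that were called in every library of both culture states. They were selected on the presence of peaks: autosomal ATAC-seq peaks of 6 libraries were merged where they overlapped by 1 bp or more, and a merged region was kept when all 6 libraries had a peak in it, when it was under 2000 bp wide, and when its nearest edge lay over 3 kb and up to 100 kb from any annotated transcript start. The rule kept 19583 of 116783 autosomal regions, and 39088 regions had a peak in all 6 libraries at any position or width. Both states carried the same Srr2 deletion: NSC cultures from the SEZ of 10-week-old mice whose Sox2 SRR2 enhancer had been removed with CRISPR-Cas9, written Srr2 del/del. PROLIF libraries (replicates 1, 2 and 4) were made from cells proliferating at 2 DIV with mitogens. DIFF libraries (replicates 1, 2 and 4) were made at 2 + 1 DIV, 1 day after the mitogen, FGF on Matrigel, had been withdrawn and fetal bovine serum added. Wild-type libraries were not analysed here.

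ATAC-seq cuts accessible DNA with the Tn5 transposase, and a peak marks a place where cuts pile up above the local background of the same library. Open regions away from promoters include enhancers, which transcription factors bind to tune a gene from a distance, and insulators, which CTCF binds to fold chromatin into loops. In neural stem cells SOX proteins, NFI proteins and bHLH factors that read E-boxes bind many such regions, and AP-1, a dimer of FOS and JUN proteins, is switched on by growth factor signalling. What follows asks how much the openness of these shared regions still differed between the states, and what their DNA sequence held.

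The regions whose sequence is shown here carry motifs on which the results turn. Each run is the GRCm38 reference, plus strand, 100 bp to either side of the highest point, or summit, of its strongest-ranking peak. Capitals mark matches, on either strand, to AP-1 (TGACTCA), the E-boxes CAGCTG and CAGATG, SOX (ACAATG or ACAAAG), the NFI motif (TTGGCA, one arm of the palindrome that an NFI dimer binds) and the CTCF core. The first set is shown because these regions had a higher fold enrichment in PROLIF and held AP-1 matches, 3 of them in the region near Ccnl1. In the region near Epha7 the AP-1 match overlaps a SOX match, so the capitals run together.
Region near Ccnl1 (chr3:65922587-65922787): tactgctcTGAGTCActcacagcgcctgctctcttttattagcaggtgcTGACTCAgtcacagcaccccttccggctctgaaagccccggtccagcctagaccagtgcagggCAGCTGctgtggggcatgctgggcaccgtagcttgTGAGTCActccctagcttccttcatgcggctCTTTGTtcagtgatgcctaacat
Region near Epha7 (chr4:28424407-28424607): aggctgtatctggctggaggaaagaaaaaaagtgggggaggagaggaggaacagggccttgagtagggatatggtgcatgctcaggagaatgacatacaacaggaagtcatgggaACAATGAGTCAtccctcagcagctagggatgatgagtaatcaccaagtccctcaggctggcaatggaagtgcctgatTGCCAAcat
Region near Nfib (chr4:82435806-82436006): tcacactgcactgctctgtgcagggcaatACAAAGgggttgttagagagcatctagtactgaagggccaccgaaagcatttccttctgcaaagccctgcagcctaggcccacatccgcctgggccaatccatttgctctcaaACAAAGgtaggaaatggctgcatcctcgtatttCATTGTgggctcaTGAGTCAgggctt

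The next set is shown because these regions had a higher fold enrichment in DIFF and held NFI motifs, 3 of them in the first. That first region and the CTCF example after it were picked after their values had been seen. Of the 8 regions with the largest differences toward DIFF, only the one near Slc39a10 held an NFI motif.
Region near 1190002N15Rik (chr9:94456434-94456634): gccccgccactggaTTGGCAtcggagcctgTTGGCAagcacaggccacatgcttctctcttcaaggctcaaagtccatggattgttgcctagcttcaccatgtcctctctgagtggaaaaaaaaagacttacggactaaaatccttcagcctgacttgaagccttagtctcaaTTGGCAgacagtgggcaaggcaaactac
Region near Slc39a10 (chr1:46830064-46830264): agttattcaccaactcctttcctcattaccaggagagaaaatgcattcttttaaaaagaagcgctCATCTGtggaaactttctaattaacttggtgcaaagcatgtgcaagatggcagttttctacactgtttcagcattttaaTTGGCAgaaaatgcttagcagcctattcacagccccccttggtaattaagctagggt

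The region near Ppp2r5c is shown for a CTCF match close to the summit and a fold enrichment that did not pass the test between the states.
Region near Ppp2r5c (chr12:110373508-110373708): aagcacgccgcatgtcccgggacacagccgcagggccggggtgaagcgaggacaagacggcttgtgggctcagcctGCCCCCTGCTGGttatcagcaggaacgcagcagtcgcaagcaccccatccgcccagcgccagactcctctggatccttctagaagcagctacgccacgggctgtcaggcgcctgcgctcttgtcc

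The region near Rab10 is shown because it ranked near the top of all 6 lists and has the sequence of mouse major satellite, the repeat beside centromeres, with no match to the marked motifs.
Region near Rab10 (chr12:3109863-3110063): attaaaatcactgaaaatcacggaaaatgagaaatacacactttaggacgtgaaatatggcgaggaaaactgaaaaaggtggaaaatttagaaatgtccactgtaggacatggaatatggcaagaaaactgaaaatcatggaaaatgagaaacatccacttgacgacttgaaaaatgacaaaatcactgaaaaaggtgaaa

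The lists held 58188 to 85593 autosomal peaks, and 24.0% to 35.1% of each library's peaks lay in the constant distal regions. Depth was recovered only as the background pileup that the deposited fold enrichment and p-value imply. It was 2.85 to 2.97 reads in PROLIF and 3.63, 2.96 and 6.01 reads in DIFF replicates 1, 2 and 4, so DIFF replicate 4 was the deepest library. Promoters of the neural stem cell markers carried a peak in all 6 libraries for 8 of 8 genes, Sox2 and Nes among them. The same held for 2 of 8 microglia markers, 3 of 8 endothelial markers and 5 of 8 mature oligodendrocyte markers, and 4, 4 and 1 genes of these lists, Cx3cr1, Cldn5 and Mag among them, had no promoter peak in any library. The part of other cell types in the results was not tested.

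The edges of the rule cut through a continuous distribution. The widest region kept was 1999 bp and the narrowest left out for width was 2010 bp. The nearest region kept lay 3001 bp from a start site and the farthest region left out as proximal lay 3000 bp away. At the far bound the values were 99952 bp inside and 100104 bp outside. A further 6380 distal regions of the same widths had a peak in 5 of the 6 libraries, and 2945 of these lacked only PROLIF replicate 4, the shortest list, against 192 that lacked only DIFF replicate 4. Peaks of those near misses ranked lower, with a median within-list percentile of 38.5 (by p, where 100 is the strongest peak) against 61.9 for the constant distal regions.

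By position, 9233 regions (47.1%) were intergenic and 8522 (43.5%) lay in an intron of a protein-coding gene. A further 1082 (5.53%) lay in an intron of a noncoding gene, 318 (1.62%) in a UTR, 245 (1.25%) in a coding exon and 183 in other exons. The median distance to a start site of any kind was 15217 bp, with 6734 regions at 3 to 10 kb, 7772 at 10 to 30 kb and 5077 at 30 to 100 kb. The nearest start was that of a protein-coding gene for 50.0% of the regions. A region is named by its nearest protein-coding start, a median of 28635 bp away and over 100 kb away for 3564 regions. The median width was 648 bp (quartiles 474 and 864 bp), against 933 bp for the 18003 constant regions of ordinary width within 3 kb of a start site. Summits fell close together, and the 6 libraries' summits spanned a median of 77 bp. In sequence the distal regions were less rich in GC than the proximal ones, with a median GC content of 50.7% against 62.2% and 3 against 13 CpG in the 201 bp around the summit.

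The deposited fold enrichment of each region's strongest peak was lower than at the proximal regions in every library. Its median was 8.57, 6.89 and 6.24 in PROLIF replicates 1, 2 and 4, and 6.26, 7.48 and 6.66 in the DIFF replicates. At the proximal regions the medians ran from 7.80 to 10.4. The raw medians did not separate the states, since the highest value and the lowest both belonged to PROLIF.

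**Figure D1:**
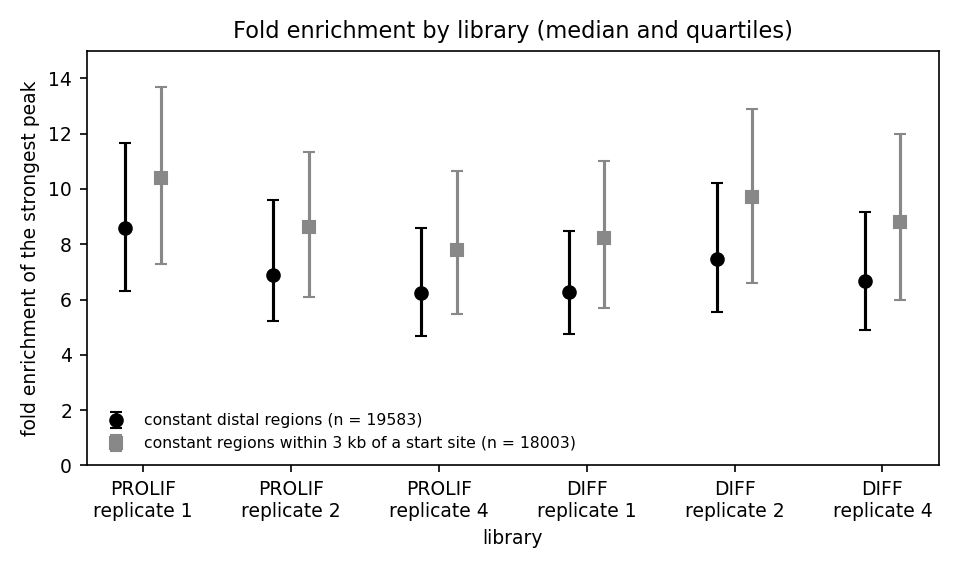
Fold enrichment (vertical axis, ratio to the local background) of the strongest peak per region in each of the 6 libraries; points are medians and bars run from the lower to the upper quartile, for the constant distal regions (black circles) and the constant regions within 3 kb of a start site (grey squares). The distal medians lie between 6.24 and 8.57, below the proximal median of the same library in all 6.

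Between the states, a larger share of the constant distal regions was called than of all regions with a peak in all 6 libraries. In limma, on quantile-normalized log2 fold enrichment over all 39088 regions with a peak in all 6 libraries, 1724 constant distal regions (8.80%) had a higher fold enrichment in DIFF and 2493 (12.7%) a higher one in PROLIF, at a Benjamini-Hochberg adjusted p under 0.05. Over all regions tested the shares were 6.98% and 8.95%, 15.9% in either direction, and at the 18003 proximal regions 4.95% and 4.55%. Leaving out 1 library moved the DIFF count to 1070 (without DIFF replicate 4) and 1137 (without DIFF replicate 2), and on within-list percentiles the PROLIF count was 1426. These differences are between strengths of peaks that were called in both states, not between open and closed chromatin. The remaining 15366 distal regions (of 19583) did not pass the test. The median difference was -0.01 on the log2 scale (DIFF minus PROLIF, quartiles -0.27 and 0.23), with a median standard error of 0.18 per region. Only 730 regions (3.73%) differed by more than 2-fold, and the median size among those called was 0.70 on the log2 scale. The shares called were 18.9%, 21.6% and 24.96% at 3 to 10, 10 to 30 and 30 to 100 kb from the nearest start. They were 20.5% for intergenic regions and 22.8% for introns of protein-coding genes. With the regions divided into 4 equal groups by mean level, from weakest to strongest, 14.99%, 23.0%, 26.1% and 22.04% were called, and 2.66%, 6.68%, 4.80% and 0.776% differed by more than 2-fold.

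**Figure D2:**
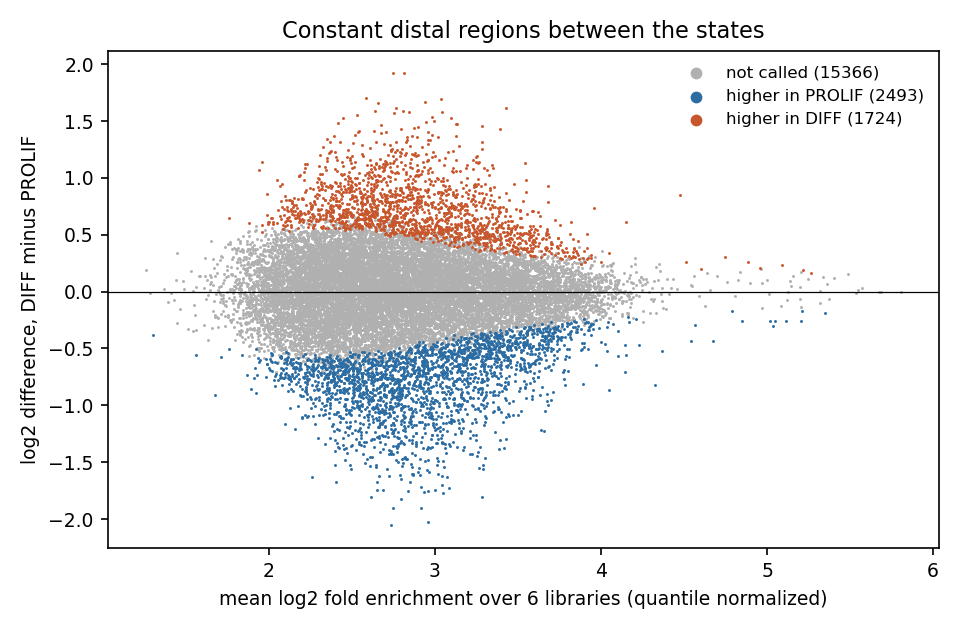
Each point is 1 of the 19583 constant distal regions, with its mean log2 fold enrichment over the 6 libraries (horizontal axis, quantile normalized) and its difference, DIFF minus PROLIF, in log2 units (vertical axis). The 1724 regions higher in DIFF (orange) reach 1.92, the 2493 higher in PROLIF (blue) reach -2.05, and the 15366 others (grey) lie between.

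Regions close together were called in opposite directions more often on the fold than on the pileup. Among adjacent constant distal regions under 5 kb apart that were both called, 9 of 73 pairs (12.3%) were called in the same direction, against 113 of 190 pairs (59.5%) at 5 to 20 kb and 250 of 429 (58.3%) at 20 to 100 kb. From the shares of the called regions in each direction alone, 51.7% of pairs would match. When the recovered pileup, the number of reads piled up at the summit, took the place of the fold, 105 of 146 pairs (71.9%) under 5 kb apart were called in the same direction. Of the 4217 calls on the fold, 3937 (93.4%) were called in the same direction on the pileup, and 1 was called in the opposite direction. In 6936 regions (35.4%) the recovered background lay within 1.1 times the floor of the library in all 6 libraries. There 8.02% were higher in DIFF and 7.94% higher in PROLIF, about equal shares.

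The regions with the widest gaps between the states were named by a fixed rule, the 8 largest differences in each direction among called regions whose 3 libraries of one state all lay above the other 3. Such complete separation held for 1684 of the regions called higher in DIFF and 2438 of those called higher in PROLIF, where 15.9% of all tested regions were called. With called and uncalled regions together, the states did not overlap in 37.1% of the constant distal regions and in 32.2% of all tested regions. The largest difference was that of an intergenic region on chromosome 4 (28424113 to 28424790), 388341 bp upstream of Epha7, which encodes an ephrin receptor. Its fold enrichment was 15.95, 12.9 and 12.3 in PROLIF and 2.59, 3.79 and 3.28 in DIFF, a log2 difference of -2.05 ± 0.17 (SE; limma adjusted p = 2.65e-06). All 3 PROLIF libraries lay well above the 3 DIFF libraries.

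The region with 3 AP-1 matches lies on chromosome 3 (65922388 to 65923038), intergenic and 24960 bp downstream of the start of Ccnl1, the gene of a cyclin that works with splicing kinases. Its fold enrichment was 16.8, 16.7 and 14.2 in PROLIF and 3.67, 4.04 and 3.42 in DIFF. The log2 difference was -2.03 ± 0.15 (SE; limma adjusted p = 1.02e-06), and the recovered pileup fell from 123, 100 and 78 reads to 16, 15 and 23.

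A region in an intron of Nfib, which encodes an NFI protein of neural progenitors, lies on chromosome 4 (82435518 to 82436287). Its fold enrichment was 17.8, 13.5 and 15.3 in PROLIF and 5.41, 4.04 and 3.68 in DIFF, a log2 difference of -1.77 ± 0.17 (SE; limma adjusted p = 5.04e-06). The background under it was 2.50 to 3.41 times the floor in PROLIF and 1.098 to 1.25 times in DIFF. On the pileup its difference was -2.99, wider than on the fold.

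The other regions of this group had log2 differences from -1.81 to -1.90. They are nearest to Isx, Prss2 and Mocs1, the last within an intron of Daam2, a formin of the actin cytoskeleton. The rest are nearest to Mylk, the gene of the myosin light chain kinase, and Fer, the gene of a tyrosine kinase. The start of Isx was 646337 bp away from its region. The region near Fer had the highest DIFF value of the group, 6.99 in replicate 4, still below its lowest PROLIF value of 17.3.

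In the other direction, the largest difference was that of an intergenic region on chromosome 11 (75431217 to 75432027), 6873 bp from the start of Serpinf2, the gene of the plasmin inhibitor. Its fold enrichment was 3.53, 4.06 and 3.12 in PROLIF and 11.9, 13.9 and 13.3 in DIFF, a log2 difference of 1.92 ± 0.17 (SE; limma adjusted p = 3.55e-06). A region in an intron of Fam184b (chromosome 5, 45595129 to 45596443) had the same rounded difference, with 5.04, 3.55 and 3.12 in PROLIF and 14.0, 13.0 and 13.8 in DIFF.

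A region upstream of Tanc2, the gene of a synaptic scaffold protein, lies on chromosome 11 (105567166 to 105567796). Its fold enrichment was 5.54, 4.31 and 4.42 in PROLIF and 15.2, 15.7 and 13.4 in DIFF, and its background stayed within 1.1 times the floor in all 6 libraries. The log2 difference was 1.69 ± 0.14 (SE; limma adjusted p = 2.34e-06). The other 5 regions had differences from 1.61 to 1.71. Tspan9, Dlgap1 (a scaffold of the postsynaptic density), Slc39a10 (a zinc transporter) and Spon1 (a matrix protein) each had such a region in an intron. The last is intergenic, 488802 bp from the start of Anxa1, its nearest protein-coding gene. The intergenic region with 3 NFI motifs near 1190002N15Rik had 5.54, 3.81 and 3.38 in PROLIF and 10.1, 9.64 and 11.1 in DIFF, a difference of 1.40 ± 0.18 (SE; limma adjusted p = 5.18e-05).

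**Figure D3:**
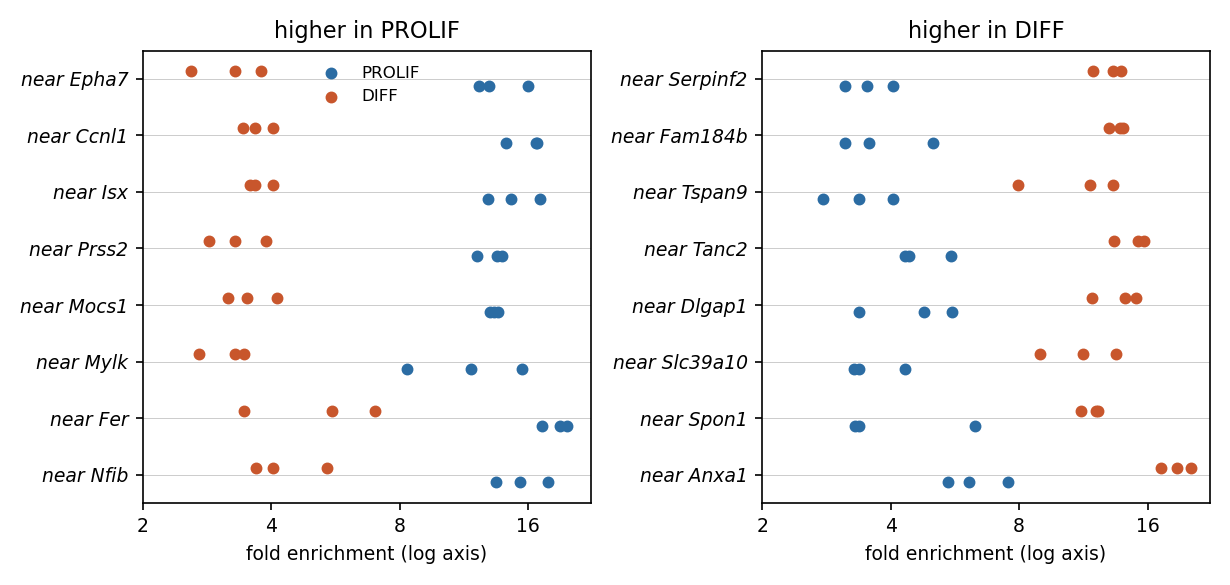
Fold enrichment (horizontal log axis) in each of the 3 PROLIF (blue) and 3 DIFF (orange) libraries for the 8 constant distal regions with the largest difference in each direction, named by the nearest protein-coding gene. In all of them the 3 libraries of one state lie apart from the other 3, with the closest approach near Spon1, where PROLIF replicate 1 had 6.30 and DIFF replicate 2 had 11.2.

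The motif content of the regions was counted for 17 short motifs in the same 201-bp windows, reading either strand, and is given with no test. Besides those marked above, the basic leucine zipper motif CREB (TGACGTCA) and another E-box (CACGTG) were counted. The homeodomain and POU families were counted as TAATTA and ATGCAAAT. RFX was counted as GTTGCCA, which overlaps the NFI motif where the next letter is A. TEAD was counted as CATTCCA and FOX as TGTTTAC. The promoter motifs were SP/KLF (GGGCGG) and ETS (CCGGAAG). STAT was counted as TTCCNGGAA and GATA as AGATAA. A match is a run of letters, not a bound site. The constant distal regions most often held SOX (34.2%), the E-boxes CAGCTG (25.3%) and CAGATG (19.3%) and the NFI motif (22.3%). Their shares in the proximal regions were 17.1%, 16.3%, 9.54% and 11.1%, and in windows of the same length over all 116783 regions 29.2%, 19.6%, 17.3% and 18.4%. SP/KLF and ETS, motifs of promoters, showed the reverse order, in 7.41% and 1.54% of the distal regions against 47.1% and 10.5% of the proximal ones. The CTCF core was found in 7.95% of the distal regions, 3.53% of the proximal ones and 4.42% of all regions.

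AP-1 carriers stood out between the states. Among the 1195 constant distal regions with an AP-1 match (6.10%), 433 (36.2%) were higher in PROLIF and 39 (3.26%) higher in DIFF, against 12.7% and 8.80% of all constant distal regions. Their median log2 fold enrichment, after quantile normalization, was 3.04, 3.01 and 3.05 in PROLIF replicates 1, 2 and 4 and 2.63, 2.65 and 2.64 in DIFF. The 3 PROLIF libraries all lay above the 3 DIFF libraries, by more than the spread within a state. The median over all constant distal regions was 2.79 to 2.82 in the 6 libraries. With more copies the share was larger: 35.4% of 1134 regions with 1 match, 50.9% of 55 with 2 and 4 of 6 with 3 or more were higher in PROLIF, and no region with 2 or more matches was higher in DIFF. Among the 344 AP-1 carriers whose background lay at the floor, 24.1% were higher in PROLIF and 4.94% higher in DIFF. Of all constant distal regions at the floor, 7.94% and 8.02% were. On the pileup 43.2% of the 1195 AP-1 carriers were higher in PROLIF and 5.36% higher in DIFF. Of all constant distal regions, 17.2% and 12.4% were so called on the pileup.

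E-box carriers leaned the same way to a lesser degree. Of the 4949 regions with CAGCTG, the core bound by many bHLH dimers, 976 (19.7%) were higher in PROLIF and 326 (6.59%) higher in DIFF, and with 2 matches the shares were 28.1% and 3.64% of 687. For CAGATG they were 17.6% and 6.70% of 3774. Regions with both AP-1 and one of these E-boxes (495) were higher in PROLIF in 43.0% and in DIFF in 0.606%. Regions with one of the E-boxes and no AP-1 (7297) were higher in PROLIF in 16.1%, and regions with AP-1 and no such E-box (700) in 31.4%. At the background floor the CAGCTG shares were 12.01% higher in PROLIF and 7.05% higher in DIFF, against 7.94% and 8.02% of all regions there. The third E-box, CACGTG, was near the shares of all constant distal regions, at 9.97% and 8.44% of 652.

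Carriers of the NFI motif were higher in DIFF in a larger share than all constant distal regions (8.80%). Of these 4361 carriers, 593 (13.6%) were higher in DIFF and 552 (12.7%) higher in PROLIF, and the DIFF share was 15.7% of 534 regions with 2 matches and 12 of 52 regions (23.1%) with 3 or more. Without AP-1 and without the E-boxes CAGCTG and CAGATG, 17.5% of 2312 carriers were higher in DIFF and 7.53% higher in PROLIF. Of the 7874 regions with no AP-1, NFI, CTCF or such E-box match, 9.13% were higher in DIFF and 8.75% higher in PROLIF. Read from the other side, 34.4% of the regions higher in DIFF held an NFI motif, against 22.1% of those higher in PROLIF and 22.3% of all. The homeodomain motif had 13.9% of 886 carriers higher in DIFF and 11.96% higher in PROLIF. SOX, the motif family of SOX2 itself, had 8.27% of 6689 carriers higher in DIFF and 15.4% higher in PROLIF. Without AP-1 or those 2 E-boxes the shares were level, 10.5% and 10.5% of 3748. At the background floor, 8.28% of 2332 SOX carriers were higher in DIFF and 9.52% higher in PROLIF. For 1384 NFI carriers at the floor the shares were 11.7% and 8.24%, against 8.02% and 7.94% of all regions there. ETS (302 carriers) and CREB (78 carriers) had 18.5% and 24.4% higher in PROLIF, on far fewer regions.

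**Figure D4:**
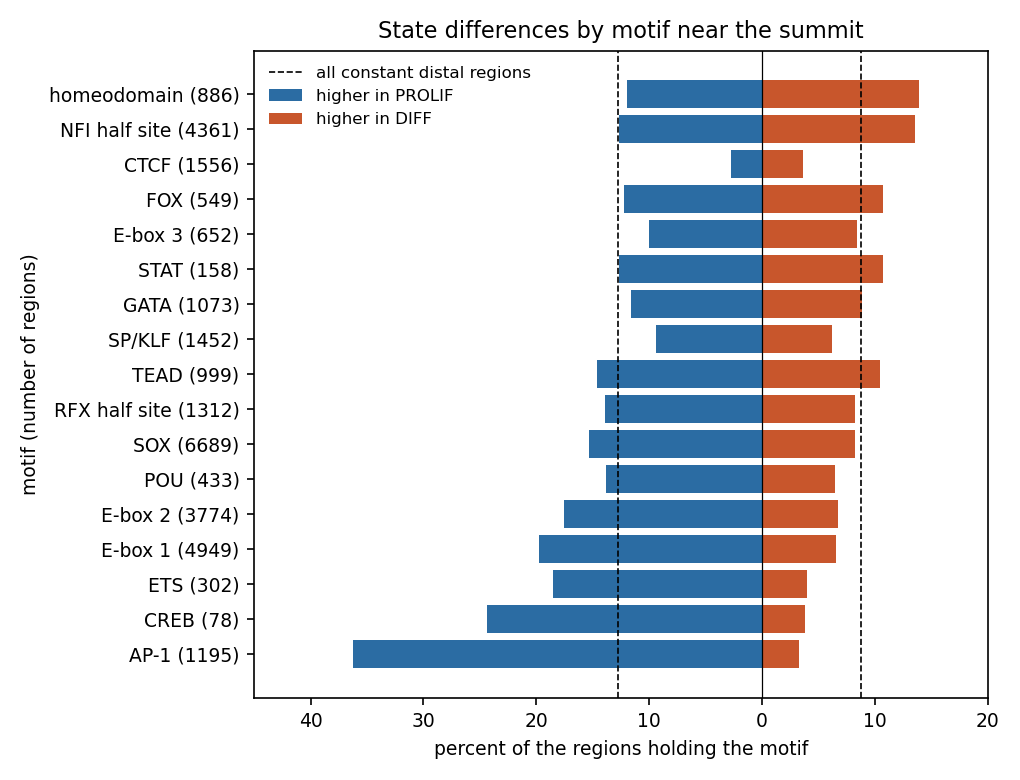
For each of 17 motifs found within 100 bp of the summit, the percent of the constant distal regions holding it that were higher in PROLIF (blue bars, to the left) and higher in DIFF (orange bars, to the right), with the number of such regions in brackets; E-box 1 is CAGCTG, E-box 2 is CAGATG and E-box 3 is CACGTG. Dashed lines mark all constant distal regions, 12.7% and 8.80%; the AP-1 bar reaches 36.2% and both CTCF bars stay under 4%.

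Among the 17 motifs, CTCF carriers had the smallest share called. Of 1556 constant distal regions with the CTCF core, 57 (3.66%) were higher in DIFF and 43 (2.76%) higher in PROLIF, and the median size of their differences was 0.18 on the log2 scale, against 0.25 for all constant distal regions. They were also narrower, with a median width of 493 bp against 648 bp. The region near Ppp2r5c (chromosome 12, 110373475 to 110373898) had fold enrichments of 10.3, 8.97 and 7.74 in PROLIF and 8.84, 10.3 and 8.60 in DIFF. The states overlapped there, with a log2 difference of 0.09 ± 0.12 (SE; limma adjusted p = 0.702). On the pileup 5.08% and 3.28% of the CTCF carriers were higher in DIFF and PROLIF, against 12.4% and 17.2% of all constant distal regions.

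The same motifs that marked direction in the constant distal regions were counted in the distal regions called in one state only. AP-1 was found in 28.8% of the 1535 regions with peaks in every PROLIF library and no DIFF library, and in 2.73% of the 3117 regions of the reverse kind. In the constant distal regions the shares were 17.4% of those higher in PROLIF and 2.26% of those higher in DIFF, with 4.71% of those not called. For the NFI motif the shares were 33.1% of the DIFF-only regions and 20.0% of the PROLIF-only regions. These sets do not share regions but come from the same 6 libraries.

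The density of matches around the summit differed between motifs. The central window held the 20-bp bins centred up to 50 bp from the summit on each side. In constant distal regions higher in PROLIF, AP-1 occurred 11.0 times there per 100 regions in each 100 bp. In flanks over 500 bp away it occurred 1.81 times, a ratio of 6.09. In regions higher in DIFF the central value was 0.870 and the flank value 1.90, so AP-1 was scarcer at the summit than around it. The E-box CAGCTG had ratios of 6.47, 3.13 and 2.09 in regions higher in PROLIF, not called and higher in DIFF, and the NFI motif 2.66, 2.49 and 4.02. CTCF matches in regions not called were 92.8 times denser at the centre than in the flanks. In them the summit itself held few, with 0.293 matches per 100 regions in each 20-bp bin next to it and 3.31 in the bins from 20 to 40 bp away. SOX was only slightly denser at the centre, with ratios of 1.34 to 1.78 in the 3 classes, and CAGATG ran from 1.04 in regions higher in DIFF to 2.02 in regions higher in PROLIF. FOX had ratios of 0.885 to 1.18, and GATA was scarcer at the centre in all 3 classes, at 0.327 to 0.433.

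**Figure D5:**
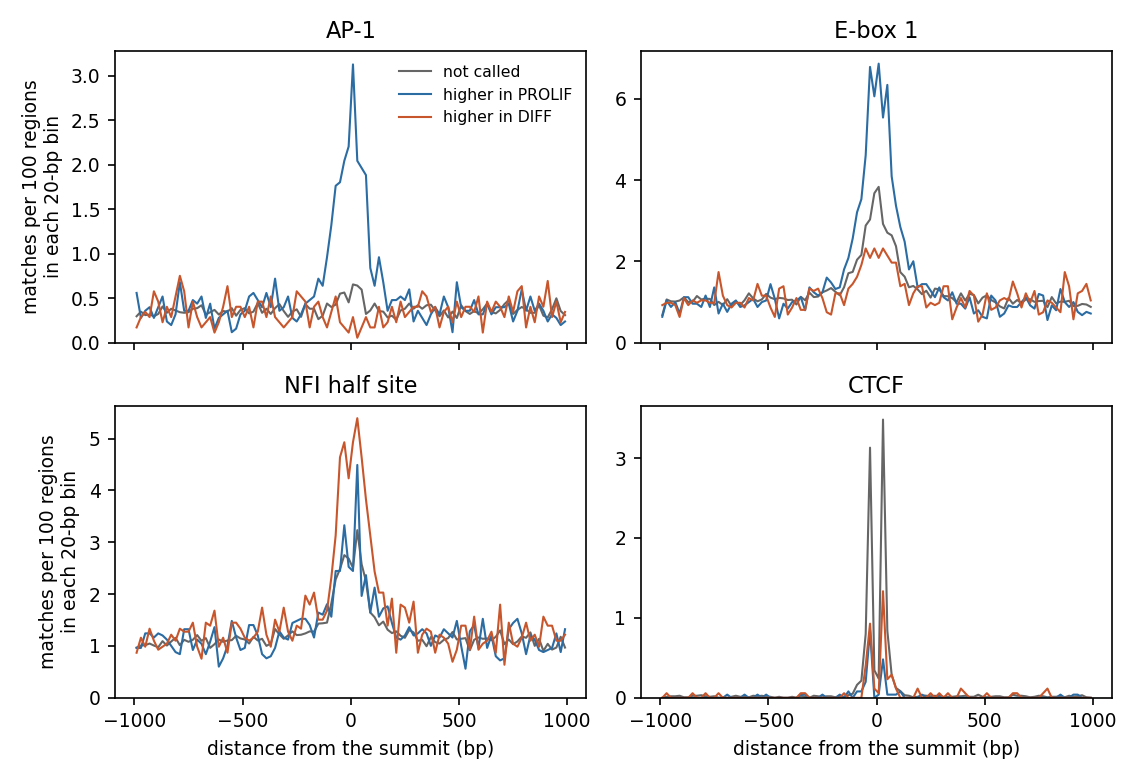
Matches per 100 regions in each 20-bp bin (vertical axis) by distance from the summit (horizontal axis, bp) for AP-1, E-box 1 (CAGCTG), the NFI motif and CTCF, in constant distal regions higher in PROLIF (blue), higher in DIFF (orange) and not called (grey). AP-1 and E-box 1 peak highest in the blue line, the NFI motif in the orange line, and CTCF in the grey line as a pair of spikes on the 2 sides of the summit.

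The regions that ranked highest in all 6 lists were not ordinary distal DNA. By the lowest of its 6 within-list percentiles, each of the 8 top regions held a sequence that occurs more than once: 31-base words around the summit had 2 to 1835 copies in the assembled chromosomes. The region near Rab10 (chromosome 12, 3109870 to 3110115) had fold enrichments of 51.1, 48.7 and 51.1 in PROLIF and 53.1, 52.5 and 50.0 in DIFF, at a background over 31 times the floor of each library. The regions nearest to Fgf14, Tmem196, Mrgprd and Wls hold runs of the telomere repeat TTAGGG. Those nearest to Galc and G6pd2, whose starts lay 1154741 and 1765728 bp away, share words with the mitochondrial genome. The regions nearest to Galc and G6pd2 were called higher in DIFF, by 0.21 and 0.19 on the log2 scale (limma adjusted p = 0.0148 and 0.00721). The others of the 8 were not called. The region near Chl1 had 4 copies. Such reads can come from any copy, so these positions are uncertain. Over all constant distal regions the problem was rare: 18751 (95.8%) had 1 copy, 832 had more, 42 held at least 4 telomere repeats in a row and 7 a mitochondrial word. In the top 20 it touched 19 regions, in the top 100 it touched 55 and in the top 1000 it touched 100. Among regions with 1 copy, 9.04% were higher in DIFF and 13.0% higher in PROLIF.

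The constant distal regions had 7747 nearest protein-coding genes, 3498 of them with 1 region and 164 with 10 or more. The gene with the most was Nrxn3, a presynaptic adhesion molecule, with 30, of which 7 were higher in PROLIF and 1 in DIFF. Next came Nav2 (a neuronal navigator protein) and Rapgef5 with 27 each, Nckap5 with 25 and Med13l, a subunit of the Mediator kinase module, with 22. Cdh4 (a cadherin), Cdk5rap2 (a centrosome protein), Celf4 (an RNA binding protein) and Nfib had 21 each. Of the 25 regions near Nckap5, 8 were higher in PROLIF and 2 in DIFF. The shares of all constant distal regions were 12.7% and 8.80%. Counts higher in PROLIF and in DIFF were 5 and 3 for Nav2, 3 and 3 for Rapgef5 and 2 and 2 for Med13l. They were 2 and 3 for Cdh4, 1 and 3 for Cdk5rap2, 2 and 3 for Celf4 and 4 and 3 for Nfib. These genes lie in broad stretches, and a nearest gene is a label of position rather than a target.

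Near neural stem cell and progenitor factors lay 167 constant distal regions, at 27 of 30 genes. Of these 14 were higher in DIFF (8.38%) and 23 higher in PROLIF (13.8%), close to the shares of all constant distal regions, with a median log2 difference of 0.01. Nfib had 3 and 4 of 21 in the 2 directions. Gli3, a transcription factor of the hedgehog pathway, had 13, with 1 higher in PROLIF. Nfia and Sox2 had 11 each. Of the 11 nearest to Sox2, all on chromosome 3, 2 were higher in DIFF and 1 higher in PROLIF.

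The 3 called regions nearest to Sox2 were described because Srr2 is an enhancer of that gene. All lie upstream in introns of a noncoding gene, 117554 to 238195 bp from the Sox2 start, and hold SOX matches. The one from 34532363 to 34532851, 117554 bp from the Sox2 start, had fold enrichments of 15.5, 11.2 and 11.4 in PROLIF and 5.39, 5.81 and 5.99 in DIFF, a log2 difference of -1.09 ± 0.13 (SE; limma adjusted p = 3.70e-05). The one from 34441235 to 34442165 went the other way, with 4.17, 3.94 and 2.92 in PROLIF and 5.91, 5.66 and 6.23 in DIFF (0.81 ± 0.19, limma adjusted p = 0.00592). The third, from 34411315 to 34412210, had 10.1, 8.12 and 8.06 in PROLIF and 9.93, 14.7 and 14.1 in DIFF. Its raw values overlapped between the states, and its difference after quantile normalization was 0.59 ± 0.12 (limma adjusted p = 0.00284).

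The mitogen and ERK response genes had 73 constant distal regions at 20 of 24 genes, 14 higher in PROLIF (19.2%, against 12.7% of all constant distal regions) and 3 higher in DIFF (4.11%, against 8.80%), with a median log2 difference of -0.01. Hmga2, a chromatin protein of young progenitors, had 8, with 2 higher in PROLIF. Jun, a subunit of AP-1, had 7 with 1 higher in PROLIF, and Fgfr1, an FGF receptor, had 5 with 1. Spry2, a feedback inhibitor of growth factor signalling, had 7, of which 3 were higher in PROLIF and none in DIFF. The one with the largest difference, intergenic on chromosome 14 (105851116 to 105852016), had 18.7, 15.7 and 14.8 in PROLIF and 8.42, 9.86 and 8.13 in DIFF, with no overlap (-0.87 ± 0.10, limma adjusted p = 1.47e-05).

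The early neuron genes had 38 regions at 10 of 16 genes, 6 higher in PROLIF (15.8%, against 12.7% of all) and 1 higher in DIFF (2.63%, against 8.80%), with a median log2 difference of -0.03. Sox11, a SOX factor of newborn neurons, had 10, of which 3 were higher in PROLIF, and Sox4, its relative, had 9 with 2. The 3 called for Sox11 lay 201897 to 381956 bp from its start. Stmn2, a microtubule regulator of growing axons, had 6 with 1 higher in PROLIF, and Dlx2, a factor of ventral forebrain progenitors, had 4 with 1 higher in DIFF.

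The astrocyte genes had 26 regions at 8 of 12 genes, 5 higher in DIFF (19.2%, against 8.80% of all) and 3 higher in PROLIF (11.5%, against 12.7%), with a median of -0.02. The 5 were near Slc1a3, a glutamate transporter (2 of 11), and Gja1, a gap junction protein (3 of 8). The 3 higher in PROLIF were another region near Slc1a3 and the single regions near Gjb6, a gap junction protein (-0.69 on the log2 scale), and S100b, a calcium binding protein (-0.63). The Gja1 calls, looked up after their counts were seen, lie close together on chromosome 10, 459869 to 520396 bp downstream. The one from 56892711 to 56893899 had 13.0, 8.75 and 5.98 in PROLIF and 13.3, 14.0 and 13.9 in DIFF, so PROLIF replicate 1 came close to the DIFF libraries (0.67 ± 0.14 SE, limma adjusted p = 0.00338). Its background was 2.31 and 4.33 times the floor in PROLIF and DIFF replicate 1, against 1 to 1.95 times in the other libraries, and the part of this in the result was not tested. Aqp4, the water channel of astrocyte endfeet, had 2 regions and Fgfr3 had 1, none of them called.

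Near oligodendrocyte lineage genes lay 35 regions at 9 of 11 genes, with 2 higher in each state and a median of -0.04. The share was 5.71% each way, against 8.80% of all constant distal regions in DIFF and 12.7% in PROLIF. Sox6 had 10, Bcas1 4 and Olig1 4, none of them called, and Mbp, the myelin basic protein gene, had 6 with 1 in each direction. The serum, TGF-beta and BMP response genes had 21 regions at 7 of 10 genes, with a median of -0.14. The list as planned held more genes than the 10 counted. Of the 21, 2 were higher in DIFF (9.52%, against 8.80% of all) and 3 higher in PROLIF (14.3%, against 12.7%). Bmpr1b, a BMP receptor, had 6 and Smad7, a TGF-beta feedback inhibitor, had 5, with 1 of each higher in PROLIF. Ankrd1 had 4, with 1 in each direction, and Acta2 had 2 with no call.

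The direction at a distal region was compared with the open region at the promoter of its nearest protein-coding gene, where that promoter had a peak in all 6 libraries. For 194 genes whose promoter region was higher in DIFF, 45 of 471 distal regions (9.55%) were higher in DIFF and 63 (13.4%) higher in PROLIF. For 141 genes whose promoter region was higher in PROLIF, the values were 26 of 349 (7.45%) and 45 (12.9%). Where the promoter region was not called, 8.99% and 13.2% of 14833 distal regions were called in the 2 directions. The distal shares were thus near those of all constant distal regions whichever way the promoter region went.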

How the data were processed

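ATAC-seq libraries were grouped by state and replicate number from the labels. Per the study's methods and the submitters' processing notes, the authors trimmed reads with cutadapt and Trimmomatic, mapped them to GRCm38 (mm10) with Bowtie2, marked duplicates and called narrow peaks per library with MACS2 at a q under 0.05; tool versions, and any shift for the transposase, were not given in the sources used here, and either can move peak edges. The deposited fold enrichment is a ratio that MACS2 takes between pileup and background within 1 library. The deposited p-values and q-values are given as −log10, and the deposited score repeats the q-value. The score was not used. No read counts were used here, so depth is known only through the background pileup (percentile 1 of the recovered local backgrounds), solved from fold and p with the Poisson distribution that MACS2 uses. The recovered pileups were within 0.05 of a whole number for 99.996% of peaks. A deeper library calls weaker peaks.

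Transcript starts came from GENCODE M21 and sequence from the RefSeq GRCm38 assembly, the build of the files. States were compared with limma 3.58.1 (lmFit, eBayes with trend, two-sided, Benjamini-Hochberg) in R 4.3.3 on quantile-normalized log2 fold of the strongest peak over 39088 regions, with no pseudocount. Quantile normalization removes any overall shift between states. Motifs and copies were counted in Python 3.11 scripts. The limma fit and motif search were tested on simulated data. Copies are matches of 3 words of 31 bases around the summit to the assembled chromosomes, as a median.

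Regions named were the 8 with the largest difference in each direction among called regions with no overlap between states. Also named were the 8 with the highest lowest percentile, the 10 genes nearest to the most regions, and up to 4 genes per list. Regions near Sox2, Spry2, Gja1 and Sox11 were looked up afterwards. A gene that the rule names is not reported here. The regions and the lists were chosen with earlier results of these data known. Alternatives were other normalizations, measures, thresholds, a replicate block and leaving out each library.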

Additional observations from a re-analysis of the deposited data

How the results depend on the processing

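The number of constant distal regions stayed between 17278 and 19354 with a q under 0.01 or 0.001, with lists cut to the shortest or with protein-coding starts only, and between 19796 and 22539 when 1 library was left out. When the peaks of each library had to cover at least 50% of the region, 7993 were left, fewer by construction.

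The count higher in DIFF (1724) ran from 1070 to 1562 with 1 library left out; it was 1070 without DIFF replicate 4, the deepest library, and 1137 without DIFF replicate 2. The count higher in PROLIF (2493) ran from 1796 to 2150. On within-list percentiles it fell to 1426, and 1220 were higher in DIFF; on the pileup 3359 and 2435 were called. Among regions at the background floor, an alternative added after the data had been seen, 7.94% were higher in PROLIF, against 12.7% of all; off chromosomes 1 and 10 the shares were 12.5% and 9.04%. The cause of these shifts was not tested.

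Replicate numbers were shared between the states, but the labels do not say that they mark the same culture. Deviations of same-numbered libraries correlated at 0.0723, 0.118 and 0.103, above every differently numbered pair (-0.0889 to -0.00476). They were taken from each state's mean over its 3 libraries. Positive same-numbered pairs then make the differently numbered ones negative on average, so part of the gap is built in. With a replicate block, 2075 were higher in DIFF and 2836 in PROLIF.

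The 16 regions named for their differences kept their direction and their call under every alternative they could be fitted in. Of the 8 regions highest in all lists, those near Galc (-0.0016 on percentiles, -0.18 on the pileup), Fgf14 (-0.67 on the pileup) and Mrgprd (-0.38 on the pileup) changed sign. Across the alternatives, 7 other values in this group lost their call and 2 gained one, with the sign kept. AP-1 was in 3.47% of the regions within 50 bp of the summit and in 5.03% around the region's middle, against 6.10%. With these windows it was in 10.2% and 13.0% of regions higher in PROLIF and 0.870% and 2.49% of those higher in DIFF.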
